A study of Homo sapiens with 8 samples.

Results

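The histone mRNA processing factors SLBP, NPAT, LSM10, LSM11, CASP8AP2 and ERI1 were followed through the RNA-seq libraries of 2 multiple myeloma cell lines. The genes were listed by symbol for their known role, at a time when earlier results of these data were known. Each symbol matched a single Ensembl gene, and the genes are 6 of the 63677 counted. JJN3 and H929 cells were treated for 24 h with 50 nM THZ1, a covalent inhibitor of the transcription kinase CDK7, or with the vehicle DMSO. Each line and treatment had 2 libraries, 8 in all, and the labels do not say whether the replicates were separate cultures, so p-values measure the spread between these libraries, which may be technical.

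Most histone mRNAs of dividing cells carry no poly(A) tail and end instead in a conserved stem-loop. SLBP binds that stem-loop and follows the mRNA from cleavage to translation, while the U7 snRNP, whose Sm ring holds LSM10 and LSM11, and the LSM11 partner FLASH (the product of CASP8AP2) bring the cleavage factors to the pre-mRNA. NPAT, a substrate of cyclin E with CDK2, activates histone gene transcription at the histone locus body, and ERI1 is a 3' to 5' exonuclease that binds the stem-loop beside SLBP and trims histone mRNA.

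The stem-loops of the 4 histone genes with the most counts show what SLBP and ERI1 bind. They were read from the GRCh37 genome on the strand of each gene, 5' to 3', with the 16 bases of the stem-loop in capitals and 5 bases on either side.
HIST2H2BE: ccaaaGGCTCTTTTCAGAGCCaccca
HIST1H2BK: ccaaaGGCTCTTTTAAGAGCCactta
HIST1H1C: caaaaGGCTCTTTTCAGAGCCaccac
HIST1H2AC: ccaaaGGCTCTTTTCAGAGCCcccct
The stem-loops lie at chr1:149857738-149857753 on the minus strand for HIST2H2BE, chr6:27114145-27114160 on the minus strand for HIST1H2BK, chr6:26055972-26055987 on the minus strand for HIST1H1C and chr6:26124897-26124912 on the plus strand for HIST1H2AC. The files held 75 histone genes, taken as replication-dependent by symbol alone, so they can include pseudogenes and tissue-specific copies. Of these 75, 40 had a position in the annotation used here. All 40 held a match to the stem-loop pattern between the start of the gene and 200 bases past its end. The pattern was also in 0.505% of 8120 other genes of the same chromosomes and the same range of lengths. Histone genes without a position were not removed from the other genes, so the 0.505% may include some under other identifiers. The commonest form, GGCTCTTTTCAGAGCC, was found in 23 of these 40 genes, and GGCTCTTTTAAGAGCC, as in HIST1H2BK, in 8.

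The counts on genes summed to between 17476443 and 19194371 per library, and 3 counts, the upper limit for a gene seen 0 times, were 0.156 to 0.172 CPM, a count scaled to library size. This limit covers counting error only. The lowest count of any of the 6 genes in any library was 252. Markers of the lines differed between the treatments within the H929 label. Lambda genes took at least 98.0% of light chain V counts in the pair labelled H929 DMSO, at most 0.212% in the pair labelled H929 THZ1, and 0.257% to 0.391% in JJN3. The t(4;14) oncogene of H929, FGFR3, was counted 45 and 285 times with DMSO and 14117 and 13411 times with THZ1. MAF, the oncogene of JJN3, was counted 18006 and 16310 times in the former pair and 2729 and 2942 times in the latter. The authors also report aberrant activation of MAF protein in H929, and lower MAF mRNA in H929 after THZ1 at a lower dose. MAF alone thus does not tell the lines apart. The identity of the cells and the treatment therefore cannot be told apart under the H929 labels, and values from them are given for the libraries as labelled. All 9 plasma cell markers had counts in all 8 libraries, with SLAMF7 as low as 2 and 174 counts with H929 DMSO. They summed to 3960 to 4255 CPM in JJN3, 3397 and 3630 CPM for H929 DMSO and 11821 and 11810 CPM for H929 THZ1. Of 6 markers of other cells, CD14 and PAX5 had at most 12 counts in any library, EPCAM had 1195 to 2391 counts in every library but those labelled H929 THZ1 (1 and 6), and CD3E had 640 and 650 counts in the latter. The 6 summed to 72.9 to 92.8 CPM in JJN3, 130 and 133 CPM for H929 DMSO and 34.9 and 35.3 CPM for H929 THZ1. The part of these cells in the results was not tested.

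In JJN3, THZ1 was followed by lower mRNA of SLBP, LSM10 and CASP8AP2 and higher mRNA of LSM11, and NPAT and ERI1 were not called. Genes were called lower or higher at an adjusted p under 0.05 and a log2 fold change beyond 0.5, with edgeR's quasi-likelihood test and Benjamini-Hochberg adjustment over all genes tested. Called in JJN3 were 4 of the 6 genes, against 41.8% of all genes tested. The 3 lower calls stand beside 21.3% of genes called lower, and the single higher call beside 20.6%. The median log2 fold change of the 6 genes was -0.37, against -0.00036 for all genes. Under the H929 labels 2 of the 6 were lower (32.6% of all genes), SLBP and CASP8AP2, and 2 were higher (33.1% of all genes), LSM11 and ERI1. There the share called in either direction was 4 of 6 against 65.7% of all genes, and the median was 0.07 against 0.01. In bulk RNA, fewer cells of a type and less RNA per cell cannot be told apart. Levels were scaled between libraries, so lower, higher and not called are relative to the other genes counted. A change in total mRNA per cell would not show in them.

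**Figure D1:**
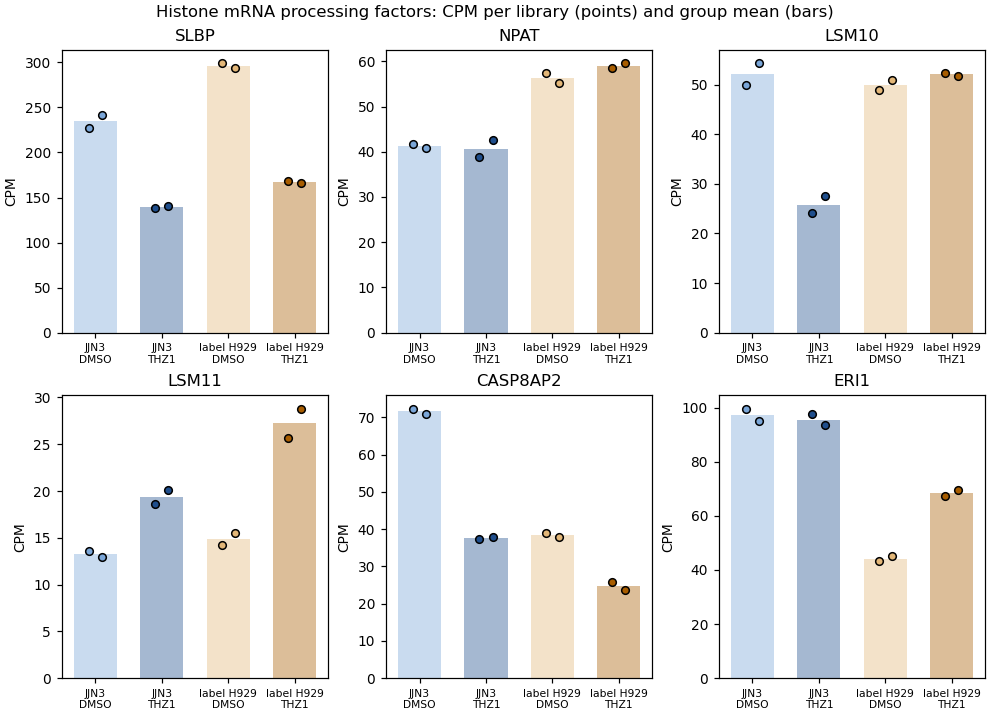
CPM of the 6 histone mRNA processing factors (vertical axis, linear and from 0) in the 8 libraries, with points for libraries and bars for the mean of the 2 libraries of a group. SLBP and CASP8AP2 sat lower with THZ1 under both line labels, LSM11 sat higher, and LSM10 was lower with THZ1 in JJN3 (24.0 and 27.5 CPM) while the libraries labelled H929 sat between 48.8 and 52.4 CPM.

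SLBP, the stem-loop binding protein, was the most abundant of the 6 per kb of exon in every group. Its gene lies at chr4:1694458-1714071 on the minus strand (GRCh37). SLBP measured 227 and 242 CPM in JJN3 with DMSO and 138 and 141 CPM with THZ1. It measured 299 and 294 CPM under the H929 DMSO label and 168 and 166 CPM under the H929 THZ1 label. All 4 libraries with THZ1 were below all 4 with DMSO. For SLBP and the other factors, the share of all genes whose libraries separate in such a way was not counted. The log2 fold change was -0.73 in JJN3 (SE 0.080, adjusted p = 2.05e-05), a level 1.66-fold lower, and -0.82 under the H929 labels (SE 0.051, adjusted p = 3.38e-10), a level 1.77-fold lower. The difference between these responses was -0.08 (95% confidence interval -0.28 to 0.12, adjusted p = 0.493). The groups ran, from high to low, H929 DMSO, JJN3 DMSO, H929 THZ1 and JJN3 THZ1, with adjacent groups 0.34, 0.49 and 0.26 apart on the log2 scale. Each of these steps had an adjusted p under 0.05 (at most 0.00212) and none reached the fold threshold.

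Cell cycle markers are given beside SLBP, whose protein is tied to S phase, although only its mRNA was measured here. The summed level of 14 S phase genes was 5280 and 5537 CPM in JJN3 with DMSO and 3619 and 3692 CPM with THZ1. Of the 14, 6 were lower in JJN3 and 0 higher, with a median log2 fold change of -0.48. RRM2, the ribonucleotide reductase subunit of S phase, changed by -1.05 and MCM6, MCM3 and MCM4 of the replicative helicase were lower as well. Under the H929 labels the S phase sum went from 4229 and 4525 CPM to 3368 and 3173 CPM, with 6 of 14 lower, 2 higher and a median of -0.39, and RRM2 was higher there (0.54). The 12 genes of G2 and M phase summed to 2707 and 2739 CPM in JJN3 with DMSO and 2400 and 2394 CPM with THZ1, with 4 lower and 2 higher. AURKB, a mitotic kinase, changed by -1.49 in JJN3, and CENPE, a kinetochore motor, by 0.80. For the H929 labels the G2 and M sum went from 2877 and 2965 CPM to 2319 and 2316 CPM, with 4 lower and 5 higher. The counts of both marker lists stand beside 21.3% of all genes lower and 20.6% higher in JJN3. Under the H929 labels these shares of all genes were 32.6% and 33.1%. The part of cell cycle position in the levels of SLBP and the other factors was not tested.

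LSM10 and LSM11 replace a pair of the common Sm proteins in the U7 snRNP and are found in no other Sm ring. LSM10 (chr1:36856839-36863509, minus strand) measured 49.8 and 54.3 CPM in JJN3 with DMSO and 24.0 and 27.5 CPM with THZ1. With the H929 labels it measured 48.8 and 50.8 CPM for DMSO and 52.4 and 51.8 CPM for THZ1. The JJN3 THZ1 libraries stood alone, at about the same distance below each of the other 3 groups. The log2 fold change in JJN3 was -0.997 (SE 0.102, adjusted p = 1.37e-05), and LSM10 was not called under the H929 labels (0.07, 95% confidence interval -0.07 to 0.21, adjusted p = 0.346). The response under the H929 labels minus that in JJN3 was 1.08 (SE 0.121, adjusted p = 9.98e-07), so LSM10 was called for this difference. Among the 3 upper groups, neighbours differed by 0.00095 and 0.06 on the log2 scale (adjusted p of 0.999 and 0.495), and H929 DMSO was 0.95 above JJN3 THZ1 (adjusted p = 5.68e-08).

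LSM11 (chr5:157170720-157187717, plus strand), which also binds FLASH, moved the other way. It measured 13.6 and 12.9 CPM in JJN3 with DMSO, 18.7 and 20.1 CPM with THZ1, 14.2 and 15.5 CPM under the H929 DMSO label and 25.7 and 28.8 CPM under the H929 THZ1 label. All 4 libraries with THZ1 were above all 4 with DMSO, and the share of all genes that separate so was not counted. The log2 fold change was 0.56 in JJN3 (SE 0.120, adjusted p = 0.00202) and 0.88 under the H929 labels (SE 0.102, adjusted p = 8.28e-07). Scaling by total counts moved the value in JJN3 to 0.46 (adjusted p = 0.00912), under the fold threshold, and the median of all genes to -0.10. The responses differed by 0.33 (95% confidence interval -0.0039 to 0.66, adjusted p = 0.0797). The DMSO groups were not told apart (0.16, adjusted p = 0.207), JJN3 THZ1 was 0.38 above H929 DMSO and H929 THZ1 was 0.49 above JJN3 THZ1, each with an adjusted p of at most 0.00510.

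The ratio of LSM10 to LSM11 counts per kb, which no scaling between libraries can alter, was looked at after these values were seen and has no test. It was 15.97 and 18.3 in JJN3 with DMSO and 5.62 and 5.98 with THZ1, and 14.98 and 14.3 under the H929 DMSO label and 8.91 and 7.84 under the H929 THZ1 label. Every library with THZ1 had a lower ratio than every library with DMSO under both labels, although LSM10 itself was lower in JJN3 alone. How many other pairs of genes separate in this way was not counted. The U7 RNA gene RNU7-1 had 0 counts in all 8 libraries. How RNA was selected for the libraries was not stated, so this does not show that U7 RNA was absent from the cells.

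CASP8AP2 (chr6:90539613-90584155, plus strand) encodes FLASH, the LSM11 partner that recruits the cleavage factors. It measured 72.3 and 71.0 CPM in JJN3 with DMSO and 37.4 and 37.8 CPM with THZ1. Under the H929 labels it measured 39.1 and 38.0 CPM with DMSO and 25.7 and 23.6 CPM with THZ1. Within each label the THZ1 libraries were below the DMSO libraries without overlap, and the share of all genes without overlap was not counted. The log2 fold change was -0.91 in JJN3 (SE 0.082, adjusted p = 5.97e-06), a level 1.89-fold lower, and -0.64 under the H929 labels (SE 0.082, adjusted p = 2.67e-06), a level 1.56-fold lower. The responses differed by 0.29 (SE 0.113, adjusted p = 0.0379), which is under the fold threshold. JJN3 THZ1 and H929 DMSO were not told apart (0.03, adjusted p = 0.698), and JJN3 DMSO stood 0.90 above and H929 THZ1 0.61 below them.

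NPAT (chr11:108027942-108093365, minus strand), the transcriptional coactivator of the histone locus body, was called under neither label. It measured 41.7 and 40.8 CPM in JJN3 with DMSO, 38.8 and 42.5 CPM with THZ1, 57.3 and 55.2 CPM under the H929 DMSO label and 58.5 and 59.5 CPM under the H929 THZ1 label. The treatments overlapped in JJN3, and all 4 libraries labelled H929 were above all 4 of JJN3. The log2 fold change was -0.0049 in JJN3 (95% confidence interval -0.21 to 0.20, adjusted p = 0.967) and 0.07 under the H929 labels (95% confidence interval -0.06 to 0.21, adjusted p = 0.299). H929 DMSO was 0.45 above JJN3 DMSO (adjusted p = 6.73e-05), under the fold threshold. ATM, the DNA damage kinase gene, starts 406 bases from NPAT on the other strand, and its log2 fold change was 0.37 in JJN3 (adjusted p = 0.00692) and 0.40 under the H929 labels (adjusted p = 0.000125), both under the fold threshold. The strand setting of the counting was not stated, so reads from overlapping genes on opposite strands cannot be told apart.

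ERI1 (chr8:8859657-8974256, plus strand), the exonuclease, measured 99.5 and 94.9 CPM in JJN3 with DMSO and 97.4 and 93.4 CPM with THZ1. The libraries labelled H929 measured 43.3 and 45.1 CPM with DMSO and 67.3 and 69.7 CPM with THZ1. The JJN3 groups overlapped, and all JJN3 libraries were above all libraries labelled H929. The log2 fold change in JJN3 was -0.01 (95% confidence interval -0.18 to 0.16, adjusted p = 0.899). For the H929 labels it was 0.64 (SE 0.067, adjusted p = 2.48e-07), a level 1.56-fold higher, and the difference of 0.66 between the responses was called (SE 0.101, adjusted p = 2.84e-05). LSM10 and ERI1 were thus the 2 of 6 genes called for a difference in response, against 53.7% of all genes tested. H929 THZ1 was 0.48 below JJN3 THZ1 (adjusted p = 1.27e-05).

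**Figure D2:**
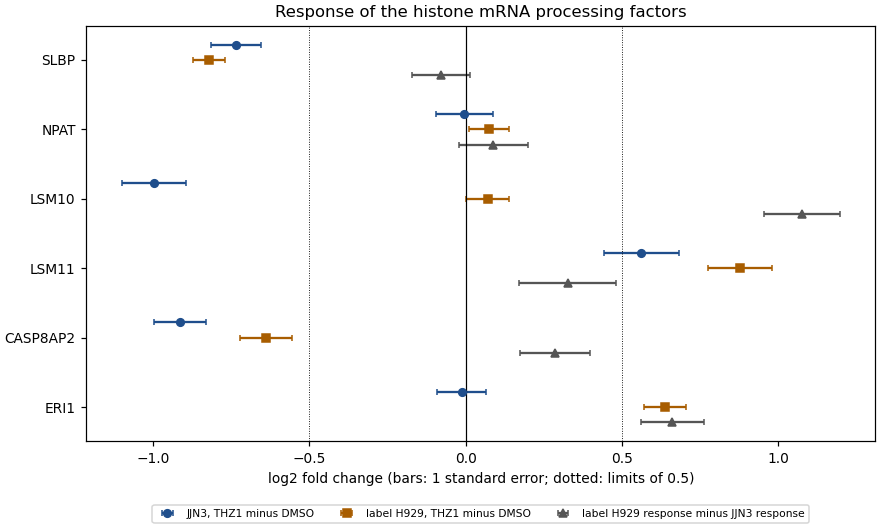
Log2 fold changes (horizontal axis) of the 6 genes with bars of 1 standard error, THZ1 minus DMSO in JJN3 (circles) and under the H929 labels (squares), and the difference between these responses (triangles), with dotted lines at the fold threshold of 0.5. The differences of LSM10 (1.08) and ERI1 (0.66) lie beyond the threshold, and those of SLBP (-0.08) and NPAT (0.09) lie close to 0.

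Levels were compared between the genes only per kb of exon. SLBP stood at 124 ± 5.32 CPM per kb (SD, n = 2) in JJN3 with DMSO and 74.1 ± 1.17 with THZ1, and at 157 ± 1.80 under the H929 DMSO label and 88.7 ± 1.02 under the H929 THZ1 label. LSM10 came next in all 4 groups, at 34.6 ± 2.07 CPM per kb in JJN3 with DMSO and 17.1 ± 1.64 with THZ1. LSM11 was the lowest in 3 groups, at 2.02 ± 0.075 CPM per kb in JJN3 with DMSO, and CASP8AP2 was the lowest under the H929 THZ1 label, at 3.02 ± 0.186. Between JJN3 and the libraries labelled H929, 2 of the 6 genes were called with DMSO in both (CASP8AP2 and ERI1), against 61.5% of all genes tested, and 3 with THZ1 in both, against 63.9%. Without JJN3 THZ1 replicate 2 the latter count was 5. For H929 THZ1 against JJN3 DMSO 4 were called (63% of all genes), and for H929 DMSO against JJN3 THZ1 3 were called (67.5%). These 4 comparisons share libraries with each other and with the comparisons of treatment.

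The genes that carry the rest of the pathway were taken as 5 lists of 33 genes. In JJN3, 12 of the 33 were lower and 5 higher, with a median log2 fold change of -0.43, beside 21.3% of all genes lower and 20.6% higher. For the H929 labels 15 were lower and 6 higher, with a median of -0.36, beside 32.6% and 33.1% of all genes. The 5 Sm proteins that complete the U7 ring, shared with the spliceosomal snRNPs, had 3 lower and 0 higher in JJN3 (median -0.58) and 5 lower under the H929 labels (median -1.02). SNRPE (-0.79), SNRPF (-0.58) and SNRPG (-0.58) were lower in JJN3, and SNRPD3 changed by -0.24 (adjusted p = 0.0316), under the fold threshold. In the histone cleavage list, 3 of 6 were lower in JJN3 (median -0.66) and 5 of 6 under the H929 labels (median -0.95). They included the scaffold SYMPK (-1.32 in JJN3 and -1.48 under the H929 labels), the endonuclease CPSF3 (-1.06 and -0.78) and its partner CPSF2 (-0.83 and -0.56). CSTF2T was not called under either label (-0.48 and 0.10).

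In the list for transcription of histone genes, 3 of 7 were lower and 1 higher in JJN3, with a median of -0.43. The cyclins that drive CDK2 phosphorylation of NPAT, CCNE1 (-0.88) and CCNE2 (-0.78), were lower there together with CDK2, and POU2F1, the octamer-binding factor of H2B genes, was higher (0.97). With the H929 labels 1 was lower and 2 higher (median -0.25), CCNE1 was higher (1.53) and POU2F1 was not called (-0.42). The 11 genes for cap binding, translation and decay had 1 lower and 4 higher in JJN3, with a median of 0.03, and 4 lower and 4 higher under the H929 labels, also with a median of 0.03. XRN1, the 5' to 3' exonuclease, was higher under both (1.33 and 0.80), and SMG1, a kinase of UPF1, rose in JJN3 (0.71) and fell for the H929 labels (-1.32). SRRT, the cap-binding complex partner, was likewise 0.78 and -1.02, and ZCCHC11, a uridylyl transferase, was 0.79 and, not called, 0.18. Of 4 genes for the turnover of SLBP protein, CCNF (-0.68) and CCNA2 (-0.62) were lower in JJN3 and CDK1 (-0.46) was not called, while 0 of 4 were called under the H929 labels by edgeR, although 3 had an unadjusted p under 0.05. All 4 were called for the difference in response, with values from 0.56 to 1.02, beside 53.7% of all genes tested. The list medians stand beside -0.00036 in JJN3 and 0.01 under the H929 labels for all genes tested. The counts of lower and higher genes stand beside 21.3% and 20.6% of all genes in JJN3, and 32.6% and 33.1% under the H929 labels.

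**Figure D3:**
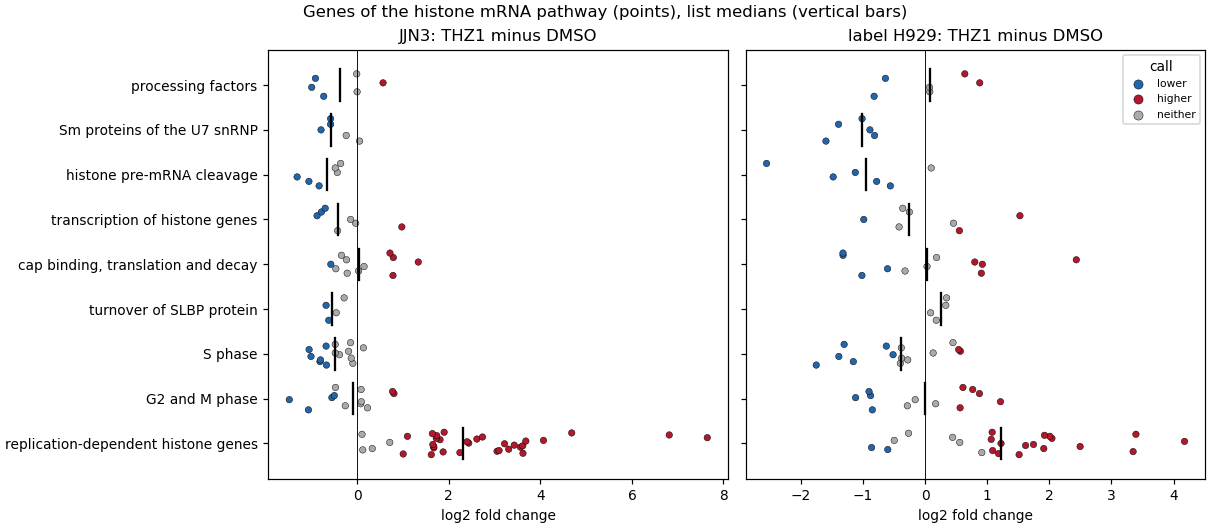
Log2 fold change (horizontal axis), THZ1 minus DMSO, of the genes of each list that passed the count filter, in JJN3 and under the H929 labels, with points for genes coloured by call and vertical bars at list medians. The Sm and cleavage lists lie mostly below 0 in both panels, and the histone genes mostly above 0, where only 34 of 75 in JJN3 and 23 of 75 under the H929 labels passed the filter.

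The histone mRNAs on which the 6 factors act had a higher summed level with THZ1, relative to the other genes counted. The sum of all 75 histone genes, with no filter, was 145 and 145 CPM in JJN3 with DMSO and 787 and 825 CPM with THZ1, and 93.7 and 78.4 CPM under the H929 DMSO label and 287 and 292 CPM under the H929 THZ1 label. Only 34 of the 75 passed the count filter in JJN3, 30 of them higher and 0 lower, and 23 under the H929 labels, 16 higher and 2 lower. Of all genes tested, 20.6% were higher and 21.3% lower in JJN3, and 33.1% and 32.6% under the H929 labels. The 2 lower genes, named after their values were seen, were HIST1H2BD (-0.60) and HIST1H2BH (-0.86). DESeq2 called 0 lower there, and 1 was called lower by edgeR with no filter, with the replicate block or with any library labelled H929 left out. A gene can pass the filter through its THZ1 libraries alone and then has to differ, so these counts describe the genes that passed and not all 75. HIST2H2BE had 196 and 195 counts in JJN3 with DMSO and 4179 and 4623 with THZ1, and 126 and 88 against 1110 and 1213 under the H929 labels. Its log2 fold changes were 4.68 (SE 0.094) and 3.39 (SE 0.118). HIST1H2BK changed by 2.43 in JJN3 and 1.62 under the H929 labels, HIST1H2AC by 2.24 and 1.18, and the linker histone HIST1H1C by 1.00 and 1.51, each called. The counts did not overlap between treatments for any of these 4 genes under either label, and the share of all genes without overlap was not counted. How RNA was selected for the libraries was not stated, so the counts do not tell histone mRNA that ends at the stem-loop from polyadenylated histone mRNA, and reads shared between near-identical histone genes were left out by the authors.

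**Figure D4:**
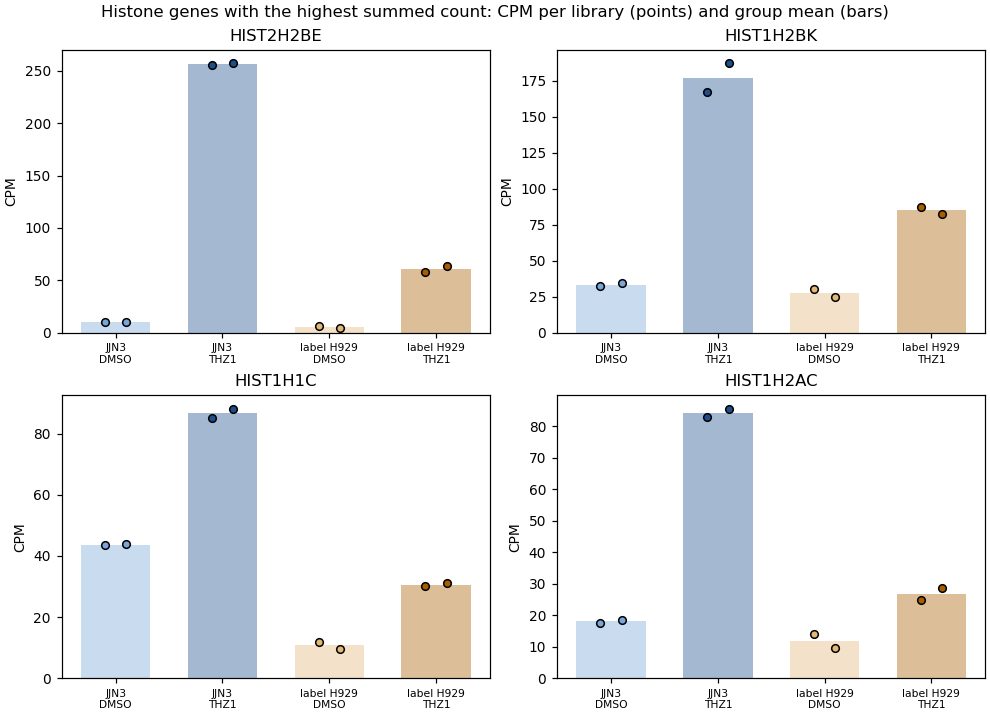
CPM (vertical axis, linear and from 0) of the 4 histone genes with the highest summed count in the 8 libraries, with points for libraries and bars for the mean of the 2 libraries of a group. Both THZ1 libraries were above both DMSO libraries for each gene and label, with the widest gap for HIST2H2BE (196 and 195 counts against 4179 and 4623 in JJN3).

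SLBP lies close to the t(4;14) region of chromosome 4, so the neighbours tested in both lines were compared with it. FGFR3, which also starts within 200 kb of SLBP, had too few counts to be tested in JJN3 and was called higher with THZ1 by the H929 labels (6.33, SE 0.304). TACC3 starts 514 bases from SLBP on the other strand, and its log2 fold change was -0.25 in JJN3 (SE 0.084) and -0.39 under the H929 labels (SE 0.063), neither past the fold threshold. TMEM129, which starts 9.01 kb away, was 0.30 in JJN3 and 1.10 under the H929 labels, called in the latter. LETM1 at 144 kb and WHSC1 at 159 kb were not called in JJN3 (-0.21 and 0.10) and changed by -1.72 and 1.19 under the H929 labels. Of these 5 genes SLBP alone was called in JJN3, where 41.8% of all genes tested were called. TACC3, TMEM129 and LETM1 had an adjusted p of 0.0264, 0.0360 and 0.0390 there by edgeR's test and missed the fold threshold. Between the DMSO libraries as labelled, TACC3 (1.23), LETM1 (1.25) and WHSC1 (1.15) were each higher under the H929 label, and SLBP differed by 0.34. FGFR3 had only 45 and 285 counts in those H929 DMSO libraries, against 14117 and 13411 under the H929 THZ1 label. The values therefore cannot be assigned to cells with t(4;14).

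**Figure D5:**
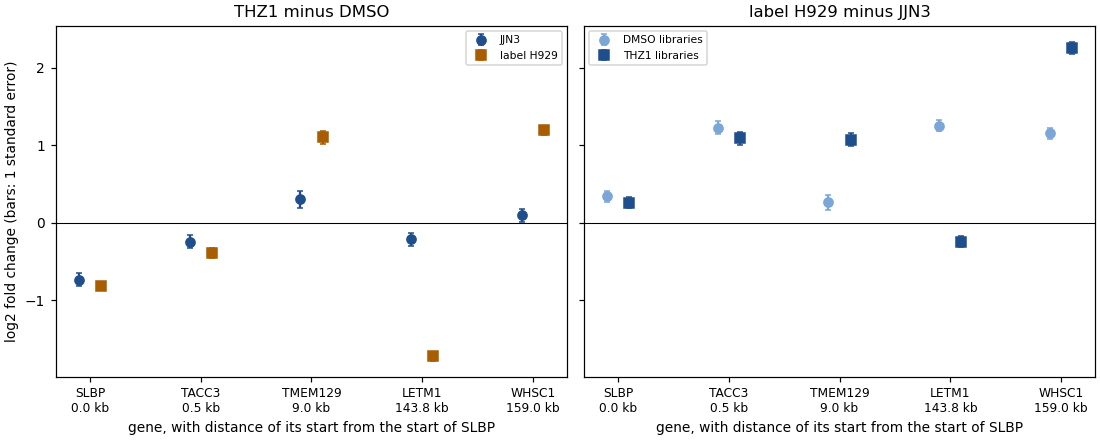
Log2 fold change (vertical axis) of SLBP and the 4 genes tested in both lines whose start lies within 200 kb of its own, in order of distance in kb, with bars of 1 standard error. In the panel of THZ1 minus DMSO, SLBP lies at -0.73 and -0.82 under the JJN3 and H929 labels while LETM1 and WHSC1 part under the H929 labels only, and the panel of H929 minus JJN3 shows WHSC1 at 1.15 with DMSO and 2.25 with THZ1.

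The promoters of the 3 factors that fell in JJN3 are shown because their mRNAs moved together there. They are RefSeq sequences of GRCh38.p14, 300 bases around the annotated start, on the strand of the gene, with motif matches on either strand in capitals, and 5 of the 6 genes had one.
SLBP: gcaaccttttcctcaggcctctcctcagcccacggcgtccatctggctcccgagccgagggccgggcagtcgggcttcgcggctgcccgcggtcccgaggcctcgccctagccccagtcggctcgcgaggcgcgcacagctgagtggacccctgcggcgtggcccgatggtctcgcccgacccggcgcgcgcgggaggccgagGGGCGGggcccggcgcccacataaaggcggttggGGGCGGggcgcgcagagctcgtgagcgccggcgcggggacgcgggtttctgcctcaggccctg
LSM10: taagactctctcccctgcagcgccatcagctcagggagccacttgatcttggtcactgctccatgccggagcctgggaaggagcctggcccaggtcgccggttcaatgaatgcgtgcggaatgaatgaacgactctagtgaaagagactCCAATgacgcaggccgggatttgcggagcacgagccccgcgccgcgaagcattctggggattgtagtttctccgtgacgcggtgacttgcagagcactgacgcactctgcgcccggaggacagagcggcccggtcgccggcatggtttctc
CASP8AP2: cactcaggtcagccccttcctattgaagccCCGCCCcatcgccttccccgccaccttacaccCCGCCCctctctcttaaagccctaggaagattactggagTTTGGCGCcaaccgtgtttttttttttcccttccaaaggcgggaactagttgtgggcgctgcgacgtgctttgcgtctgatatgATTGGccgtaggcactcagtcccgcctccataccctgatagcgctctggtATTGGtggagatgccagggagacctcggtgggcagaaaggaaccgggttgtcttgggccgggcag
The windows are chr4:1712270-1712569, chr1:36397859-36398158 and chr6:89829630-89829929. Both strands were searched for 7 motifs, none of which overlap each other in the windows shown. The GC box GGGCGG was in SLBP, NPAT, LSM11 and CASP8AP2 and in 44.95% of 35116 promoters, and the CCAAT box was in NPAT, LSM10 and CASP8AP2 and in 34.6%. The E2F site TTTGGCGC was found in CASP8AP2 alone of the 5 and in 0.652% of all promoters. Another E2F site, TTTCCCGC, was in 0 of the 5 and in 1.63% of all promoters. The TATA box TATAAA was in 0 of the 5 and in 11.5% of all. The same 0 of 5 held for the ETS site CCGGAAGT, found in 4.14% of all, and the NRF1 site GCATGCGC, found in 3.05%. No motif was shared by SLBP, LSM10 and CASP8AP2. A match describes letters in a window and not a bound site.

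The genes whose pattern over the 8 libraries was most like that of each factor were found by the root mean square difference of centred log2 CPM among 8952 genes. The 8 libraries share 4 groups of 2, so these values describe the groups and carry no p. UTP6, a ribosome biogenesis factor, was closest to SLBP (0.049, Pearson's r 0.994), followed by PDZD11 (0.051). TAB1, a partner of the kinase TAK1, was among the closest to LSM10 (0.080), and HMGN2 and GAR1 were closest to CASP8AP2 (0.070 and 0.081). DCAF16 and USP22 were closest to LSM11 (0.082 and 0.083), CNOT11 and ZBTB7B to NPAT (0.054 and 0.056), and MBTPS1 and ATF6, which act in the unfolded protein response, to ERI1 (0.059 and 0.061).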

How the data were processed

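RNA-seq of the JJN3 and H929 cell lines (single-end reads of total RNA, 8 libraries) was analysed from the deposited files. The authors aligned reads to hg19 with STAR 2.5.2a, kept uniquely aligned reads, and summed them over Ensembl genes with featureCounts. The deposited values are raw counts, not normalized. RNA selection and the strand setting are not given in the sources used here. The authors also deposited DESeq2 1.12.4 results per line (mean normalized signal, log2 fold change, standard error, test score, p-value and adjusted p-value), of which only gene identifiers and symbols were used here.

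The members and gene lists were chosen with earlier results of these data known. Counts were tested with edgeR 4.0.16 in R 4.3.3 (TMM, filterByExpr, quasi-likelihood test, Benjamini-Hochberg adjustment over all genes tested), within each line (13984 genes in JJN3 and 14863 under the H929 labels) and over all 8 libraries in a single fit (16122 genes) for the difference in response and for comparisons between lines. The thresholds were those of the study. CPM used TMM scaling over the 8 libraries, and CPM per kb used the exon union length of the GENCODE annotation of GRCh37. Standard errors were derived from the quasi-likelihood F statistic, and 95% confidence intervals from its degrees of freedom. Biological coefficients of variation were 0.0740 (JJN3) and 0.0432 (H929 labels). Replicates differed beyond sampling noise (chi-square per degree of freedom 3.36 to 11.3), so all libraries were kept. The tests were tried on simulated data. Alternatives were DESeq2 1.42.0, edgeR scaled by DESeq2's size factors or by total counts, no filter or 1 CPM in 2 libraries, all 8 libraries in the fit within a line, the replicate number as a block, other thresholds, and leaving out each library.

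The named genes were the 6 members, up to 4 genes of each list with the largest absolute log2 fold change in JJN3, the 4 histone genes with the highest summed count, genes starting within 200 kb of SLBP, the opposite-strand neighbour of NPAT, and the 2 genes most like each member among genes whose mean log2 CPM reached 3. Some genes that this rule selects are not reported here.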

Additional observations from a re-analysis of the deposited data

Results flagged for a closer look

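Results were marked for a closer look where the response to THZ1 under the H929 labels differed from that in JJN3, at an adjusted p under 0.05 and a difference beyond 0.5 on the log2 scale (edgeR's quasi-likelihood test over 8 libraries, Benjamini-Hochberg adjustment), a mark that 53.7% of all genes tested received. Each value is the response under the H929 labels minus that in JJN3, and the identity of the cells and the treatment cannot be told apart in it. Among the processing factors the differences were 1.08 for LSM10 and 0.66 for ERI1. In the Sm and cleavage lists they were -0.80 for SNRPF, -0.56 for SNRPD3 and 0.59 for CSTF2T. Among the transcription factors and cyclins they were -1.38 for POU2F1, 2.41 for CCNE1 and 0.54 for CCNE2. In the decay list they were -0.52 for XRN1, -0.59 for ZCCHC11, -1.79 for SRRT and -2.03 for SMG1. The genes for SLBP turnover were marked, with 1.02 for CCNF, 0.81 for CCNA2 and 0.56 for CDK1 among them. Of the cell cycle markers, RRM2 differed by 1.60, MCM4 by 0.53, AURKB by 1.34 and CENPF by -1.66. The histone genes differed by -1.28 for HIST2H2BE, -0.81 for HIST1H2BK, 0.52 for HIST1H1C and -1.05 for HIST1H2AC. Near SLBP the differences were 0.81 for TMEM129, -1.50 for LETM1 and 1.10 for WHSC1. Of the genes most like a factor, TAB1 differed by 1.12, DCAF16 by 0.58 and ATF6 by 0.71.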

How the results depend on the processing

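The calls of the 6 factors within a line were 4 in JJN3 and 4 under the H929 labels under DESeq2, every scaling but total counts, both filters, the joint fit and each library left out. With total counts LSM11 in JJN3 fell under the fold threshold. At a log2 fold change beyond 1, edgeR called 0 factors in JJN3 and 0 under the H929 labels, where 4 and 4 had an unadjusted p under 0.05, 1 for the difference in response, 1 between lines with DMSO, 1 with THZ1 and 2 for H929 THZ1 against JJN3 DMSO. That threshold left 3 of the other pathway genes in JJN3 and 11 under the H929 labels, 1006 JJN3 genes lower and 1397 higher, and 3146 lower for the H929 labels. With the adjusted p alone, 27 other pathway genes were called in JJN3, and the factors called between lines were 4 with DMSO, 6 with THZ1 and 5 for H929 DMSO against JJN3 THZ1. Leaving out a library gave 3 to 5 factors between lines with THZ1, the 5 without JJN3 THZ1 replicate 2. The cause of these shifts was not tested.

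Values near 0 changed sign. NPAT in JJN3 was 0.011 with DESeq2's size factors, 0.013 with the 1 CPM filter and -0.073 to 0.059 with a library left out, above 0 without JJN3 THZ1 replicate 1. ERI1 in JJN3 was 0.0040 with those size factors, 0.0057 with that filter, and -0.059 to 0.019 with a library left out, above 0 without JJN3 DMSO replicate 1 (0.0039) or JJN3 THZ1 replicate 2 (0.019). The difference in response of SLBP was 0.065 with total counts and 0.0049 with no filter. The cause was not tested.

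Same-numbered libraries did not deviate together (correlation of deviations from the group means -0.0010 in JJN3 and -0.025 under the H929 labels). These values cannot exclude that same-numbered libraries were handled together. With the replicate block 4 factors were called in JJN3 and 4 under the H929 labels, and 3013 JJN3 genes were lower and 2889 higher.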
